A study of Mus musculus with 12 samples.

Results

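A set of 9 genes that mark fibro-adipogenic progenitors, the mesenchymal stromal cells that lie between the fibres of skeletal muscle, were followed in RNA from the mouse soleus. The 9 genes, Pdgfra, Cd34, Smoc2, Dcn, Lum, Dpt, Ly6a, Fbn1 and Mfap5, were taken by symbol from the 24539 genes of the deposited table, and all 9 were among the 13886 genes with enough counts to be tested. Fibro-adipogenic progenitors are a main source of the matrix around muscle fibres. They can become fibroblasts or adipocytes, and after injury they secrete factors that act on satellite cells, the stem cells of muscle. PDGF receptor alpha is the surface protein by which they are usually recognised in muscle. Several of the 9 genes are also expressed by other fibroblasts, tendon cells or endothelium, so their RNA in whole muscle is not that of these progenitors alone.

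The soleus, a calf muscle rich in slow fibres, was sequenced in 12 libraries from C57BL/6 mice, 3 in each of 4 groups. Wild type (WT) mice carried floxed Dnmt3a alleles, and knockout (KO) mice carried a deletion of Dnmt3a named for MCK. Each genotype was studied sedentary and after exercise, and all mice were kept on chow. Dnmt3a encodes a DNA methyltransferase that places new methyl marks, mostly on cytosines followed by guanine. MCK usually stands for muscle creatine kinase, whose promoter is active in striated muscle fibres and not known for activity in stromal cells. The sources used here give no age, sex, exercise protocol, deleted exons or time from exercise to dissection. Libraries of a group are called a, b and c, and the columns of WT exercise a and KO exercise a each carry 2 animal numbers. The sources used here do not say whether animals were pooled in them.

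Total counts ran from 13329547 to 15480960 per library, and the 9 genes together took 0.0675% to 0.139% of them. Dnmt3a stood at 48.6 to 60.5 CPM (counts put on one library size) in the 6 KO libraries and at 113 to 180 CPM in the 6 WT libraries. The log2 difference averaged over both conditions was -1.39 (SE 0.114, adjusted p = 0.000288, edgeR quasi-likelihood test), so the genotype labels matched the targeted gene. The summed level of 4 slow fibre markers (Myh7, Tnnt1, Myl2 and Tnni1) was 15645 to 23909 CPM in every library, so the markers of the labelled muscle were present. The sum of 5 fast fibre markers (Myh4, Myh1, Tnnt3, Tnni2 and Actn3) ran from 13134 to 32168 CPM. It was highest in KO sedentary b, where the slow sum was 15935 CPM. The fast sum also exceeded the slow sum in WT sedentary a and c and in WT exercise a. Alb, a liver gene, exceeded 100 CPM in KO sedentary b, WT exercise b and WT exercise c, and these 3 libraries stand apart from the other 9 in that respect. Counts of called genes in the averaged exercise comparison are given below with and without them, and with and without the libraries with 2 animal numbers.

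All 9 genes were detected in every library, with at least 249 counts in the lowest case, Pdgfra in KO exercise c. To compare genes, CPM was divided by the length of each gene's longest coding transcript in kilobases, which need not be the form expressed here. On this scale Dcn stood highest, with a mean over the 12 libraries of 261 CPM per kilobase. It was followed by Ly6a at 56.0, Cd34 at 55.9, Smoc2 at 32.4, Mfap5 at 30.8, Dpt at 22.1, Lum at 19.7, Fbn1 at 10.7 and Pdgfra at 4.18 CPM per kilobase. Dcn was above every other gene of the set, and Pdgfra below every other, in all 12 libraries. Ly6a and Cd34 could not be put in order, since Ly6a was the higher of them in 5 of 12 libraries. Smoc2 exceeded Mfap5 in 9 of 12 libraries and Dpt exceeded Lum in 11 of 12, so these steps of the order were not kept throughout. Each of the other neighbours kept its order in all 12 libraries. Fbn1 varied most, by 3.19-fold between its lowest and highest CPM, and Ly6a least, by 1.39-fold.

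Promoter sequence was at hand for 4 of the 9 genes in RefSeq's table of mouse build GRCm38.p6. The 250 bases before RefSeq's start of transcription are shown for the genes of the surface proteins Pdgfra and Cd34, which both fell with exercise, and for Fbn1, the gene of the set that varied most. Capitals mark CG, the dinucleotide on which Dnmt3a acts, and each sequence is written 5′ to 3′ on the gene's own strand: Pdgfra from chr5:75152001-75152250 (plus strand), Cd34 from chr1:194938571-194938820 (plus strand) and Fbn1 from chr2:125506439-125506688 (minus strand).
Pdgfra: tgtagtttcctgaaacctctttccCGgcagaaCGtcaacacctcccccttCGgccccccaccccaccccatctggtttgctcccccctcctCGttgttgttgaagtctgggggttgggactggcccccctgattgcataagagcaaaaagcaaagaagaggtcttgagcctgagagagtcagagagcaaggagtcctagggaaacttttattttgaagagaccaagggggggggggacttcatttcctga
Cd34: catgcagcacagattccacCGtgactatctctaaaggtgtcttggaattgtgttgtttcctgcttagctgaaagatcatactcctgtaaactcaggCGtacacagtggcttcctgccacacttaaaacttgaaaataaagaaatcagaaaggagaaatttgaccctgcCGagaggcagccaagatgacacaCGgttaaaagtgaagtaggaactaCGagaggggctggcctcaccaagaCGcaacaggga
Fbn1: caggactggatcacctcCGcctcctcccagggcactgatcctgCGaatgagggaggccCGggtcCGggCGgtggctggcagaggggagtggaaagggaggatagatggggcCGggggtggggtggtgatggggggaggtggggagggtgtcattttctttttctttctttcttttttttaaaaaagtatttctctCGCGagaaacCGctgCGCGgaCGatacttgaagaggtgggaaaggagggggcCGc
RefSeq's start of Fbn1 lies 1555 bases inside the gene as GENCODE places it, so that window is within the gene span given below. The Pdgfra window holds 4 CG dinucleotides, a number reached or passed by 62.2% of the 32851 promoter windows of that length. Cd34 holds 6, as do or surpass 50.4% of windows, and Fbn1 holds 13, reached or passed by 31.5%. The fourth gene with a window, Dpt, holds 3, against a median of 6 over all windows. The motif GGGCGG, searched on both strands like those that follow, had 1 match in the 4 windows, in Fbn1, and 32.7% of all windows hold it. There was no match to TATAAA, which occurs in 12.4% of all windows, to CACGTG, which occurs in 6.02%, or to TGACTCA, which occurs in 4.46%. Methylation was not measured in these samples.

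The genes are described in 3 groups by role: the surface proteins Pdgfra, Cd34 and Ly6a, the secreted matrix proteins Smoc2, Dcn, Lum and Dpt, and the microfibril proteins Fbn1 and Mfap5. Levels below are CPM computed from the deposited counts. In whole muscle, fewer cells of a type and less RNA per cell cannot be told apart.

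Pdgfra, Cd34 and Smoc2 were lower in exercised than in sedentary muscle, and Ly6a was not lower. Over both genotypes, 8 of the 9 genes had a lower mean after exercise, and the 3 named fell past an adjusted p of 0.05, where 1.68% of all tested genes were called lower and 2.32% in either direction. DESeq2 called 4, with Fbn1 added (background 7.43% of genes with an adjusted p), and limma-voom called the same 3 (background 2.28%). By unadjusted p under 0.05 there were 7 (background 22.8%). The median log2 difference of the 9 genes was -0.40, against 0.00034 over all tested genes. The 9 genes summed to 1195 ± 106 CPM in sedentary WT, 952 ± 149 in exercised WT, 1143 ± 83.4 in sedentary KO and 856 ± 176 in exercised KO muscle (SD, n = 3 each). Dcn alone made up 40.3% to 50.8% of that sum, so the sum mostly follows Dcn.

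**Figure D1:**
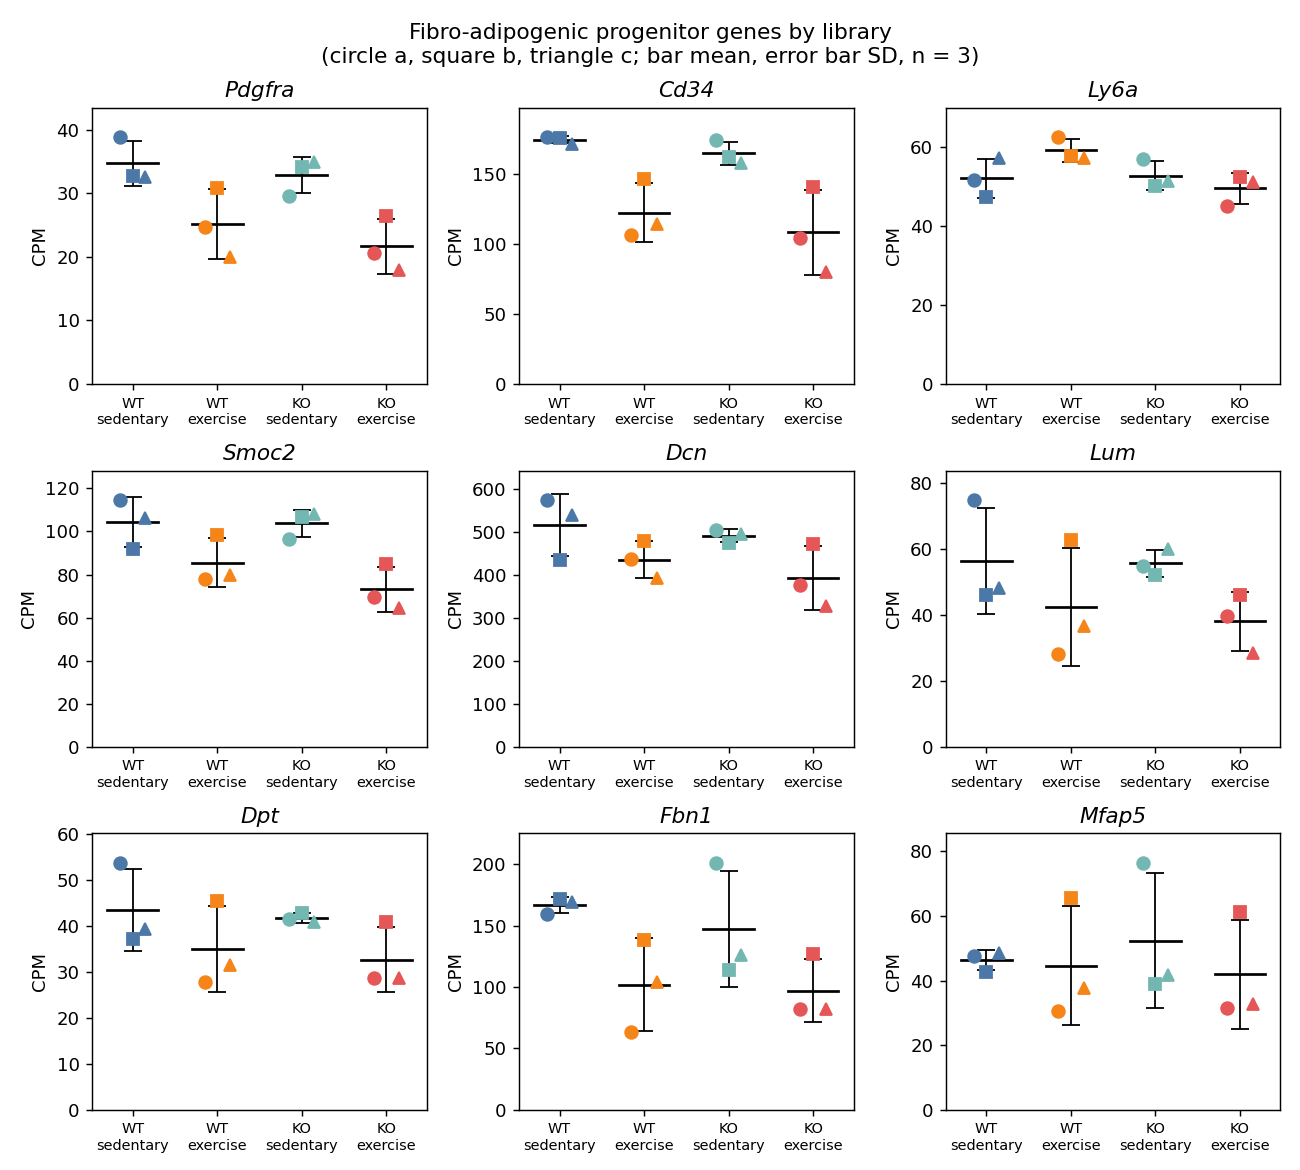
Level of each of the 9 genes in CPM (vertical axes, from 0) in the 12 libraries, by group; symbols are libraries a (circle), b (square) and c (triangle), the long bar is the mean and the error bar the SD of 3 libraries. Cd34 stands at 158 CPM or more in all sedentary libraries and at 146 or less in all exercised ones, while the Ly6a values of the 4 groups lie close together.

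Pdgfra, on chromosome 5 (75152292 to 75198215, plus strand, mm10), encodes the receptor for PDGF that defines these cells. It stood at 38.8, 32.7 and 32.6 CPM in the sedentary WT libraries and at 24.6, 30.9 and 19.9 CPM in the exercised WT libraries. In KO muscle the values were 29.6, 34.1 and 34.9 CPM sedentary and 20.6, 26.4 and 17.9 CPM after exercise. The sedentary libraries were higher than the exercised ones within each genotype, and over both genotypes the ranges met only where WT exercise b, at 30.9, passed KO sedentary a, at 29.6. The log2 change with exercise, averaged over genotypes, was -0.53 (SE 0.118, 95% interval -0.79 to -0.28, adjusted p = 0.0416, edgeR quasi-likelihood test). Its exons share 652 bases with Gm42802, Gm42803 and Mir7025, and the sources used here do not say whether reads were counted by strand.

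Cd34, on chromosome 1 (194938819 to 194961279, plus strand, mm10), encodes a sialomucin of the cell surface that is also made by endothelial cells and other progenitors. Its values were 177, 176 and 172 CPM in sedentary WT, 107, 146 and 114 in exercised WT, 174, 163 and 158 in sedentary KO and 104, 141 and 80.4 in exercised KO muscle. It was the single gene of the 9 whose 6 exercised libraries all lay below its 6 sedentary libraries, which 2.16% of all tested genes did. The averaged log2 change was -0.56 (SE 0.120, 95% interval -0.82 to -0.30, adjusted p = 0.0406). Its sedentary values were close together, with an SD of 2.70 CPM in WT and 8.23 in KO, against 21.0 and 30.5 after exercise. Its exons share 148 bases with Gm16897.

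Ly6a, on chromosome 15 (74994877 to 74998031, minus strand, mm10), encodes Sca-1, a membrane-anchored protein used together with PDGF receptor alpha to sort these cells and also found on mouse endothelium. Its values were 51.6, 47.4 and 57.4 CPM in sedentary WT, 62.6, 57.8 and 57.4 in exercised WT, 57.1, 50.1 and 51.4 in sedentary KO and 45.0, 52.6 and 51.2 in exercised KO muscle. The exercised WT libraries lay above both KO groups without overlap, and the other pairs of groups overlapped. The averaged log2 difference with exercise was 0.05 (SE 0.067, 95% interval -0.098 to 0.19, adjusted p = 0.706). With total counts and no scaling factors it was -0.049, and in that fit the median of all genes stood at -0.094. Of the 50-base windows of its longest coding transcript, 10% also occur in transcripts of other genes (I830127L07Rik, Ly6c1, Ly6c2 and Ly6i), so its level is uncertain to that extent.

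Smoc2, on chromosome 17 (14279506 to 14404790, plus strand, mm10), encodes a secreted calcium-binding protein of the matrix. It stood at 115, 91.9 and 106 CPM in sedentary WT, 78.1, 98.6 and 80.0 in exercised WT, 96.3, 107 and 108 in sedentary KO and 69.6, 85.0 and 64.6 in exercised KO muscle. The KO groups were apart, and in WT the exercised library b, at 98.6, lay above the sedentary library b, at 91.9. The averaged log2 change was -0.40 (SE 0.088, 95% interval -0.59 to -0.20, adjusted p = 0.0416). This was the smallest of the 3 called changes and the one with the narrowest interval.

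The remaining matrix genes were lower on average but did not pass the test. Dcn and Lum encode decorin and lumican, small leucine-rich proteoglycans that bind collagen fibrils. They are neighbours on chromosome 10 (97479609 to 97518143 and 97565128 to 97572703, both plus strand, mm10), with 46984 bases between them. Dcn ranged from 436 through a median of 500 to 574 CPM in the 6 sedentary libraries and from 329 through 414 to 478 in the 6 exercised ones, with a log2 difference of -0.28 (SE 0.096, adjusted p = 0.118). Lum ranged from 46.2 through 53.6 to 74.9 CPM sedentary and from 28.2 through 38.2 to 62.7 exercised, a log2 difference of -0.48 (SE 0.207, adjusted p = 0.205). Dpt, on chromosome 1 (164796644 to 164824266, plus strand, mm10), encodes dermatopontin, which binds decorin. It ranged from 37.1 through 41.0 to 53.6 CPM sedentary and from 27.7 through 30.1 to 45.5 exercised, a log2 difference of -0.33 (SE 0.142, adjusted p = 0.193). In each of the 3 genes the groups overlapped, and WT exercise b was the highest of the exercised libraries.

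Fbn1 and Mfap5 encode fibrillin-1, the backbone of microfibrils, and a glycoprotein (MAGP-2) that associates with it. Fbn1, on chromosome 2 (125300594 to 125507993, minus strand, mm10), had the widest difference of the set with exercise. It stood at 159, 172 and 170 CPM in sedentary WT, 63.1, 139 and 104 in exercised WT, 201, 114 and 126 in sedentary KO and 82.5, 127 and 82.0 in exercised KO muscle. The groups were apart in WT and overlapped in KO, and the averaged log2 difference of -0.65 did not pass the test (SE 0.210, 95% interval -1.12 to -0.19, adjusted p = 0.117, edgeR). DESeq2 gave -0.64 with an adjusted p of 0.0197. Its exons share 2442 bases with Gm9913.

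Mfap5, on chromosome 6 (122505845 to 122529290, plus strand, mm10), was carried by single libraries. KO sedentary a stood at 76.4 CPM, WT exercise b at 65.6 and KO exercise b at 61.4, while the other 9 libraries ran from 30.7 to 48.7 CPM. Its averaged log2 difference with exercise was -0.19 (SE 0.257, 95% interval -0.76 to 0.39, adjusted p = 0.696), and its sign turned when KO sedentary a was left out, to 0.0069.

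**Figure D2:**
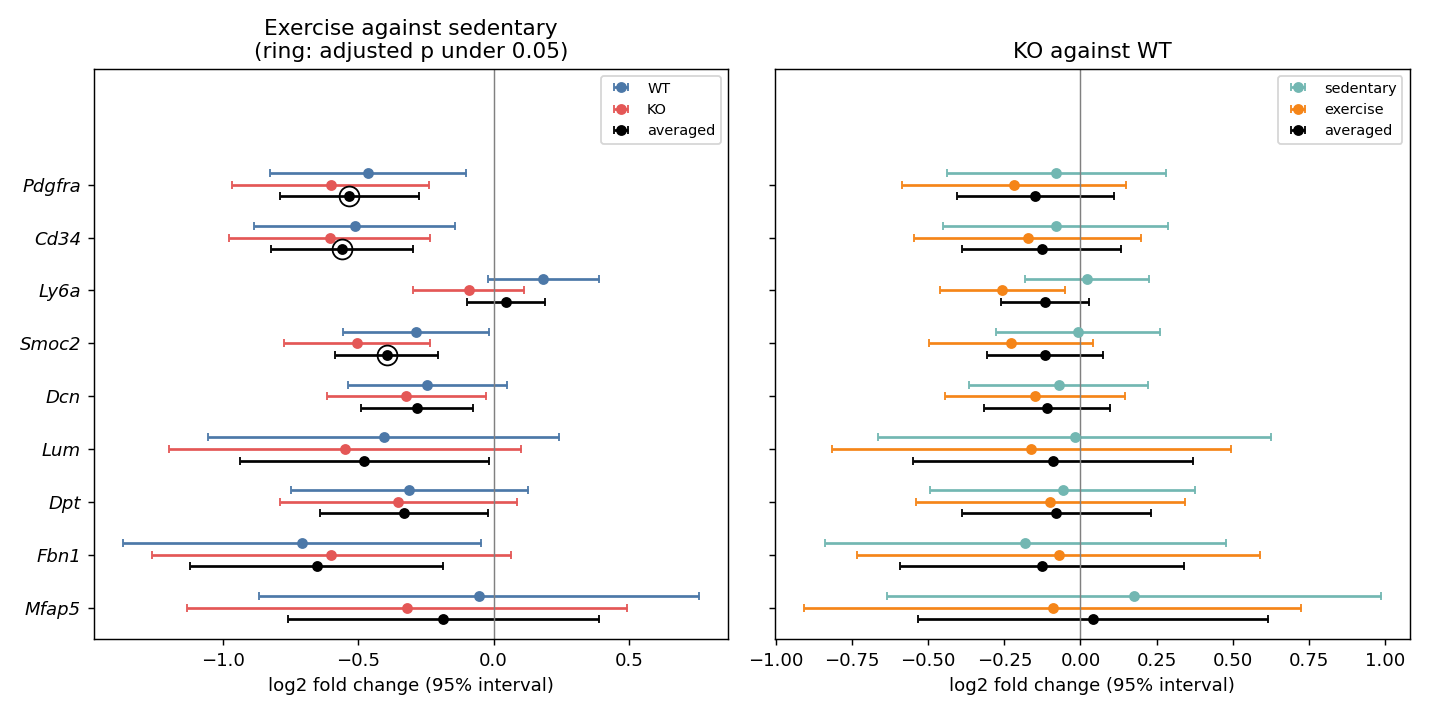
Log2 fold change of each gene (points) with its 95% interval (bars), for exercise against sedentary on the left and KO against WT on the right, within each group and averaged; a ring marks an adjusted p under 0.05. The rings fall on the averaged exercise changes of Pdgfra (-0.53), Cd34 (-0.56) and Smoc2 (-0.40), and no ring falls on a genotype difference.

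The 3 calls depended on most of the single libraries. Their direction was the same in all 20 alternative fits, with log2 changes of -0.62 to -0.46 for Pdgfra, -0.67 to -0.47 for Cd34 and -0.48 to -0.35 for Smoc2, but all 3 stayed under the threshold in 8 of them. Leaving out a single library, any of KO exercise a or c, KO sedentary a, b or c, WT exercise a or c, or WT sedentary a or c left 0 of the 9 genes called. Without WT sedentary b, 1 gene stayed, Smoc2. Without WT exercise b all 3 were called, and without KO exercise b there were 4, with Dcn added. The adjusted p over the 12 fits with 1 library left out ran from 0.0107 to 0.0971 for Cd34. Without the 2 libraries that carry 2 animal numbers 0 were called (adjusted p 0.126 to 0.127), and without the 3 libraries high in Alb 0 were called (adjusted p 0.0871 to 0.09). The calls over the whole table moved as well, from 322 genes to 123 and 122 in these fits. They rose to 697 of 14124 genes without KO exercise b and fell to 66 of 14019 without KO sedentary b.

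The exercise comparison within each genotype had 3 libraries on each side. In WT muscle 8 of the 9 genes were lower after exercise, with a median log2 difference of -0.31. Of the 9, 0 were called by edgeR, DESeq2 or limma-voom (background 0.0216% by edgeR, 122 of 14886 genes by DESeq2). By unadjusted p under 0.05 there were 4 (background 9.41%), and Pdgfra, Cd34 and Fbn1 had exercised libraries wholly below the sedentary ones (3 of 9, background 8.68%). Fbn1 differed most there, by -0.71 (SE 0.298, adjusted p = 0.499). In KO muscle all 9 were lower, with a median of -0.50, and 0 were called by edgeR or limma-voom, with 0% of all tested genes called by edgeR. By unadjusted p there were 4 (background 17.9%), and Pdgfra, Cd34, Smoc2, Dcn and Lum did not overlap between the groups (5 of 9, background 12.5%). DESeq2 called 2 in KO muscle (background 2.33%), Cd34 at -0.59 (adjusted p = 0.0414) and Smoc2 at -0.49 (adjusted p = 0.0249). The averaged comparison and the 2 comparisons within a genotype share their libraries.

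**Figure D3:**
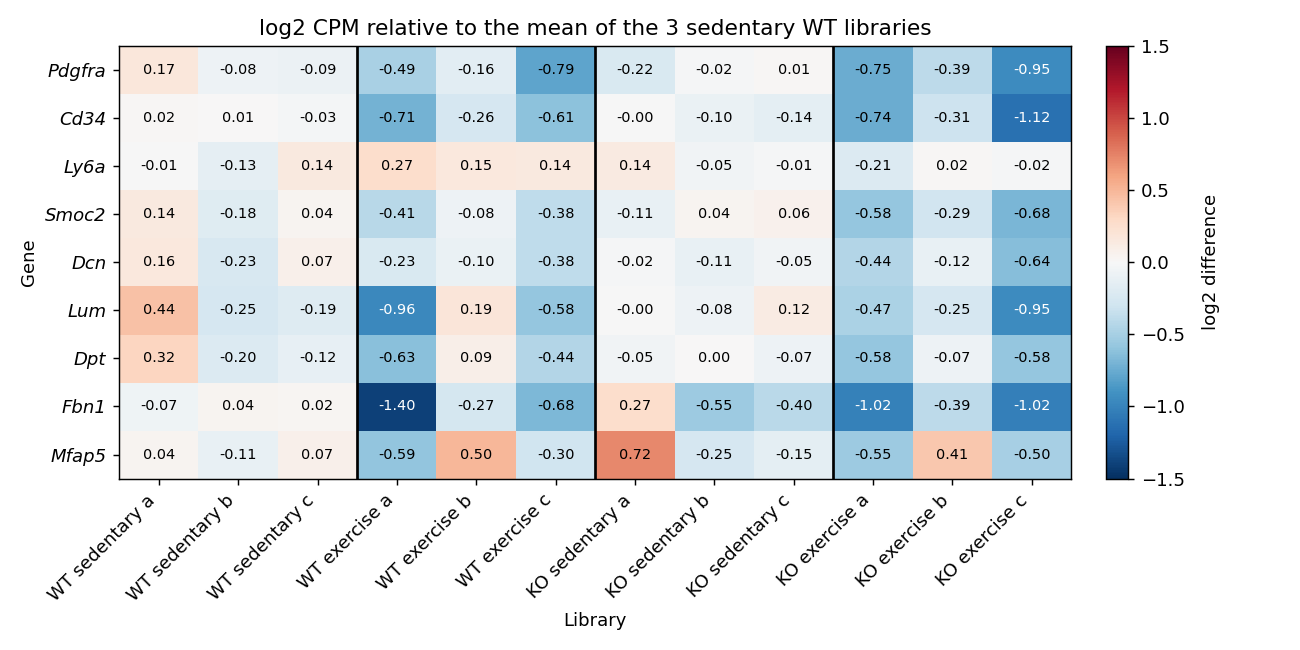
Log2 CPM of each gene (rows) in each library (columns), relative to the mean of the 3 sedentary WT libraries; blue is lower and red higher, and black lines part the groups. The exercised columns are mostly blue except for Ly6a, with the palest exercised columns in WT exercise b and KO exercise b, and the deepest value is Fbn1 in WT exercise a, at -1.40.

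Within the exercised groups the libraries differed from each other along the whole set. KO exercise b lay above its group mean in 9 of 9 genes, by a median of 0.30 on the log2 scale, and WT exercise b in 8 of 9, by a median of 0.32. KO exercise c was the lowest library of all in summed level, at 715 CPM, against 1053 in KO exercise b and 1124 in WT exercise b. The same b libraries were also the highest of the exercised libraries in the summed level of 8 tendon genes, at 747 and 786 CPM, against 187 to 644 in the other 4. They were highest as well in adipocyte genes (426 and 450 CPM, against 260 to 375) and macrophage genes (104 and 106 CPM, against 52.6 to 74.5). In endothelial genes WT exercise c was the highest, at 867 CPM. The part of tendon or of any other tissue in the values of the 9 genes was not tested.

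Most of the genes moved together from library to library. Over the 36 pairs of genes, Pearson's r of log2 CPM across the 12 libraries ran from -0.14 to 0.95 with a median of 0.77, and it was above 0.5 in 27 pairs. Pdgfra and Smoc2 made the closest pair, at 0.95. With each group's mean removed, so that neither exercise nor genotype enters, the median was 0.70 and the closest pair was Fbn1 with Mfap5, at 0.94. Ly6a was the exception, with a median r of -0.0035 with the other 8 genes. These are descriptions over libraries that share their scaling, with no test and no background from pairs of other genes.

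The genes outside the set whose level followed it most closely were chosen for that likeness, so their r is also a description. Over the 12 libraries they were Sertad4 (r = 0.97), Col3a1, Col6a2, Fndc1, Col5a1, Prkcdbp, C1s1 and Vim, each with r of at least 0.95 to the mean of the 9 standardized levels. Col3a1, Col5a1 and Col6a2 encode collagen chains, C1s1 a complement protease and Vim the intermediate filament vimentin. Without KO exercise a and c, the libraries farthest from the median, r for Sertad4 was 0.95 and for Col3a1 0.93. With group means removed they were Antxr1 (r = 0.99), Sertad4, Pcdhb4, Cacna1g, Islr, Sulf2, Gpr34 and Mfap4. Antxr1, a collagen-binding receptor, kept an r of 0.98 without KO exercise b and WT exercise b. The second set held Gpr34, a receptor of macrophages and related cells at 0.207 to 2.30 CPM, which fell by 1.76 (adjusted p = 0.0455). None of the first 8 passed the test for exercise, with log2 differences from -0.79 for Sertad4 to -0.29 for Prkcdbp.

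Knockout of Dnmt3a was not accompanied by a detected difference in any of the 9 genes. In sedentary muscle 0 were called by edgeR, DESeq2 or limma-voom (background 0.0288% by edgeR, 20 of 14151 genes by DESeq2). Of the 9, 0 had an unadjusted p under 0.05 (background 4.83%). The log2 differences there ran from -0.18 for Fbn1 to 0.18 for Mfap5, with a median of -0.059. After exercise 0 were again called by any of these tools (background 0.0216% by edgeR, 7 of 18929 genes by DESeq2). Of the 9, 1 had an unadjusted p under 0.05 (background 3.38%). That gene was Ly6a, whose exercised KO libraries, at 45.0 to 52.6 CPM, all lay below the exercised WT libraries, at 57.4 to 62.6 CPM (1 of 9 genes, background 3.49%). Its log2 difference was -0.26 (SE 0.094, 95% interval -0.46 to -0.052), and the adjusted p was 0.9996.

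Averaged over conditions, 8 of the 9 genes were lower in KO, by little: the median log2 difference was -0.12, against -0.0058 over all tested genes. None was called by edgeR, DESeq2 or limma-voom (background 0.0576% by edgeR, 33 of 14886 genes by DESeq2). Of the 9, 0 had an unadjusted p under 0.05 (background 4.5%). The intervals show what the data allow. For Pdgfra the log2 difference was -0.15 with a 95% interval of -0.41 to 0.11, for Cd34 -0.13 (-0.39 to 0.13), for Smoc2 -0.12 (-0.31 to 0.073), for Dcn -0.11 (-0.32 to 0.097) and for Ly6a -0.12 (-0.26 to 0.027). Lum, Dpt, Fbn1 and Mfap5 had wider intervals, the widest for Mfap5, at -0.53 to 0.62. For Pdgfra and Cd34 themselves, a difference of the size seen with exercise lay outside the averaged interval. For Pdgfra it lay within the interval for exercised muscle alone, -0.58 to 0.15, and for Cd34 close to the end of that interval, -0.54 to 0.20. The averaged intervals of Fbn1 (-0.59 to 0.34) and Lum (-0.55 to 0.37) held a difference of -0.53, that of Pdgfra with exercise. By their own exercise differences, that of Lum, -0.48, lay within its interval and that of Fbn1, -0.65, lay outside.

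Whether the exercise difference itself depended on genotype was tested as an interaction. It was called for 0 of the 9 genes by edgeR, DESeq2 and limma-voom (background 0% by edgeR, 25 of 18208 genes by DESeq2). There were 0 of the 9 at an unadjusted p under 0.05 (background 3.1%). The interaction log2 differences ran from -0.28 for Ly6a to 0.11 for Fbn1, and 8 of 9 were negative. Ly6a had log2 differences with exercise of 0.18 in WT (95% interval -0.019 to 0.39) and -0.092 in KO (-0.30 to 0.11), and its interaction interval was -0.57 to 0.012 (adjusted p = 0.9997). The interval for Pdgfra, -0.65 to 0.38, leaves room for a difference between genotypes as large as the exercise difference itself.

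The 7 related lists described next hold none of the 9 genes, and their values are for the same exercise comparison averaged over genotypes. Their counts are to be read against all tested genes, of which 1.68% were called lower, 22.8% had an unadjusted p under 0.05 and 7.43% of those with an adjusted p were called by DESeq2. Without KO exercise b, 697 of 14124 genes over the whole table were called in either direction, against 322 of 13886 with all libraries. In PDGF signalling 2 of 6 tested genes fell and 0 rose, with a median log2 difference of -0.25. Pdgfb, a PDGF ligand made largely by endothelium, fell by 0.53 on the log2 scale (SE 0.097, adjusted p = 0.0234). Its sedentary libraries stood at 71.0 to 92.3 CPM and its exercised ones at 43.7 to 62.5 CPM. Pdgfrb, the receptor of mural cells that fibroblasts also carry, fell by 0.49 (SE 0.104, adjusted p = 0.0389), from 79.5 to 125 CPM to 54.5 to 76.7. Both had groups that did not overlap. The other genes of the list did not pass the test, the ligand gene Pdgfa among them, at -0.16. There were 0 calls without KO exercise c or WT sedentary c and 1 without KO sedentary a or b, WT exercise a or c or WT sedentary b, 0 without the 3 libraries high in Alb, and 1 without the 2 libraries with 2 animal numbers.

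Of 27 tested other fibro-adipogenic and fibroblast genes, 2 fell and 0 rose, with 23 lower and a median of -0.33. Thy1, a surface glycoprotein of fibroblasts, fell by 0.56 (SE 0.128, adjusted p = 0.0459), from 21.3 to 25.7 CPM to 12.1 to 22.6. Entpd2, an enzyme that breaks down extracellular ATP, fell by 0.51 (SE 0.105, adjusted p = 0.0344), from 20.3 to 26.2 CPM to 13.5 to 21.5. Col15a1, a basement membrane collagen that marks a fibroblast state, was chosen after its values were seen. It stood at 178 to 213 CPM in sedentary and at 85.3 to 165 CPM in exercised libraries without overlap, with an adjusted p of 0.0775. There were 0 calls when any sedentary library, KO exercise c or either of WT exercise a and c was left out, 1 without KO exercise a, 3 without WT exercise b and 6 without KO exercise b. Without the libraries with 2 animal numbers there were 0, and without those high in Alb 3.

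The families of the matrix members showed lower means with few calls. Among 11 tested other small leucine-rich proteoglycans 10 were lower, with a median of -0.37, and 0 were called (4 by unadjusted p, 1 by DESeq2, 0 by limma-voom). Chad and Prelp had the smallest p, with log2 differences of -0.90 (SE 0.303, adjusted p = 0.130) and -0.50 (SE 0.163, adjusted p = 0.119). Among 21 microfibril and elastic fibre genes 20 were lower, with a median of -0.30, and 0 were called (7 by unadjusted p, 1 by DESeq2, 0 by limma-voom). Adamts10 and Efemp1 led these, at -0.38 (SE 0.107, adjusted p = 0.0803) and -0.50 (SE 0.153, adjusted p = 0.0952). Without KO exercise b, 3 of the proteoglycan and 2 of the microfibril genes were called lower.

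Signals that act on or come from these cells were likewise lower on average. Of 19 TGF-beta and myofibroblast genes 15 were lower, with a median of -0.21. The gene Tgfb2, a TGF-beta ligand, fell by 0.38 (SE 0.089, adjusted p = 0.0465), from 32.4 to 44.6 CPM to 23.5 to 31.9, and was the 1 gene called. There were 0 calls by limma-voom, 0 without any of KO exercise a or c, KO sedentary a or b, WT exercise a or c or WT sedentary b or c, and 3 without KO exercise b. There were also 0 without the libraries with 2 animal numbers and without those high in Alb. Tgfb1 did not pass, at -0.44 (SE 0.140, adjusted p = 0.109). All 11 tested factors that act on satellite cells were lower, with a median of -0.41, and 0 were called (3 by unadjusted p, a share near that of all genes, 0 by DESeq2 and limma-voom, and 1 without KO exercise b). Il33 and its receptor gene Il1rl1 had the smallest p, with log2 differences of -0.42 (SE 0.152, adjusted p = 0.136) and -0.74 (SE 0.288, adjusted p = 0.162).

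Adipogenic regulators did not move one way. Of 12 tested, 7 were lower and 5 higher, and 0 were called by edgeR or limma-voom (7 by unadjusted p). DESeq2 called 3 lower and 2 higher, and with single libraries left out edgeR called up to 2 lower and up to 2 higher. The early adipogenic factors Cebpd and Cebpb were higher on average after exercise, by 1.73 (SE 0.419, adjusted p = 0.0643) and 1.09 (SE 0.248, adjusted p = 0.0552). Cebpb stood at 119 to 276 CPM in exercised and at 57.8 to 135 CPM in sedentary libraries, overlapping through WT sedentary b, and Cebpd at 32.2 to 116 against 9.94 to 40.0 CPM, overlapping through the same library. Ebf1, which acts in early adipocyte commitment, differed by -0.42 (SE 0.100, adjusted p = 0.0502). Both Cebp genes also respond to many stimuli in other cell types of muscle.

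**Figure D4:**
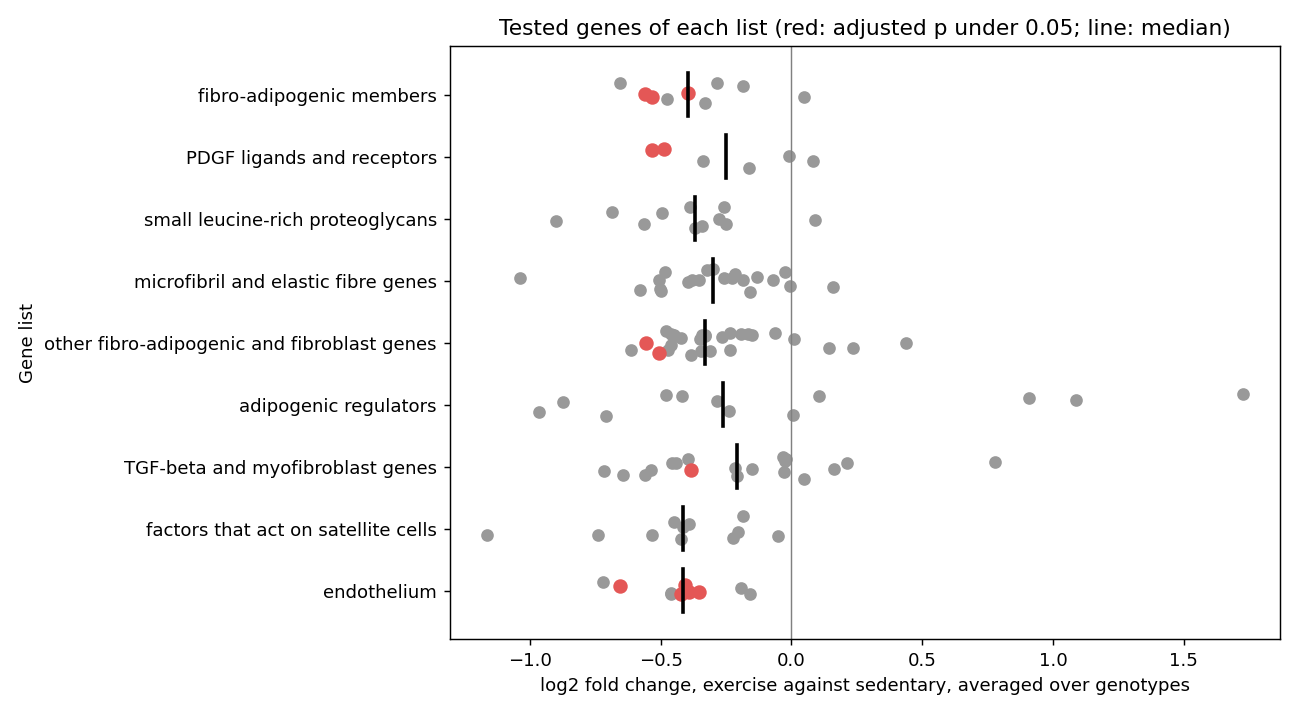
Log2 fold change with exercise, averaged over genotypes, of every tested gene (points) of the 9-gene set, 7 related lists and the endothelial list; red marks an adjusted p under 0.05 and the black line the median of a list. All medians lie below 0, between -0.41 and -0.21, and the points highest on the axis are the adipogenic regulators Cebpd and Cebpb.

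In the averaged comparison of KO with WT, 0 genes of the 7 related lists were called by edgeR, DESeq2 or limma-voom. Smad3, a mediator of TGF-beta signalling, had the smallest p among them, with a log2 difference of 0.29 (SE 0.078, unadjusted p = 0.00307, adjusted p = 0.620). Cxcl14, a chemokine of fibroblasts, came next, at -0.24 (SE 0.091, adjusted p = 0.9999).

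Markers of other cells moved with exercise beside the 9 genes. Of 10 endothelial genes all were lower and 5 fell, Pecam1, Cdh5, Tie1, Emcn and Egfl7, with a median log2 difference of -0.41, where 1.68% of all tested genes were called lower. Pecam1, the platelet and endothelial adhesion molecule, fell by 0.41 (SE 0.074, adjusted p = 0.0234), and Egfl7, a secreted endothelial factor, by 0.65 (SE 0.104, adjusted p = 0.0133). The endothelial list summed to 963 to 1104 CPM in sedentary and to 595 to 867 in exercised libraries without overlap. It had 1 call without WT sedentary c, 2 without KO sedentary b, 3 without any of WT sedentary a or b, WT exercise a or c or KO exercise c, and 7 without KO exercise b. Without the libraries high in Alb 1 was called, and without those with 2 animal numbers 3. The sums of the 9 genes themselves ran from 1075 to 1291 CPM sedentary and from 715 to 1124 exercised, and overlapped through WT exercise b.

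The other lists overlapped more, and their counts stand beside the same shares of all genes. Macrophage genes were all lower (8 of 8, median -0.83), with sums of 88.0 to 235 CPM sedentary and 52.6 to 106 exercised, and 0 were called by edgeR but 6 by DESeq2 (7 by unadjusted p), and 3 without KO exercise b. Adipocyte genes were all lower (7 of 7, median -0.96), with sums of 336 to 647 CPM against 260 to 450, and 0 were called by edgeR, DESeq2 or limma-voom (2 by unadjusted p). Tendon genes were all lower (8 of 8, median -0.42), with sums of 578 to 965 CPM against 187 to 786, and 0 were called by these tools (1 by unadjusted p), with 2 called without KO exercise b. Chad is in both the tendon list and that of the small leucine-rich proteoglycans, so these lists are not separate. Of 6 satellite cell genes 3 were lower and 3 higher. They summed to 77.3 to 152 CPM sedentary and to 129 to 269 exercised, a sum mostly made up of Sdc4, at a mean of 67.4 CPM sedentary and 149 exercised, while the defining genes Pax7 (7.74 and 6.09 CPM) and Myf5 (5.03 and 3.74 CPM) were lower on average. None of them was called by edgeR or limma-voom, 1 was called higher by DESeq2, and 2 had an unadjusted p under 0.05. Of 8 smooth muscle and pericyte genes 1 fell, Pdgfrb, with sums of 1309 to 1555 CPM against 1200 to 1478, and 0 fell without the libraries high in Alb or those with 2 animal numbers. Erythrocyte genes were all lower (5 of 5, median -0.54), with sums of 166 to 534 CPM against 164 to 275. Of them 0 were called by these tools (3 by unadjusted p), but 3 without KO sedentary a, where 136 of 14079 genes were called over the whole table. Slow fibre genes were all higher (4 of 4, median 0.25), with sums of 15645 to 22414 CPM against 17881 to 23909, and 0 were called by edgeR or limma-voom and 1 by DESeq2 (3 by unadjusted p). Schwann cell genes, 6 of 6 lower, summed to 202 to 1036 CPM against 216 to 533, and 0 were called by these tools or had an unadjusted p under 0.05. None of these cell markers was at 0 in any library. Their part in the lower level of the 9 genes was not tested.

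**Figure D5:**
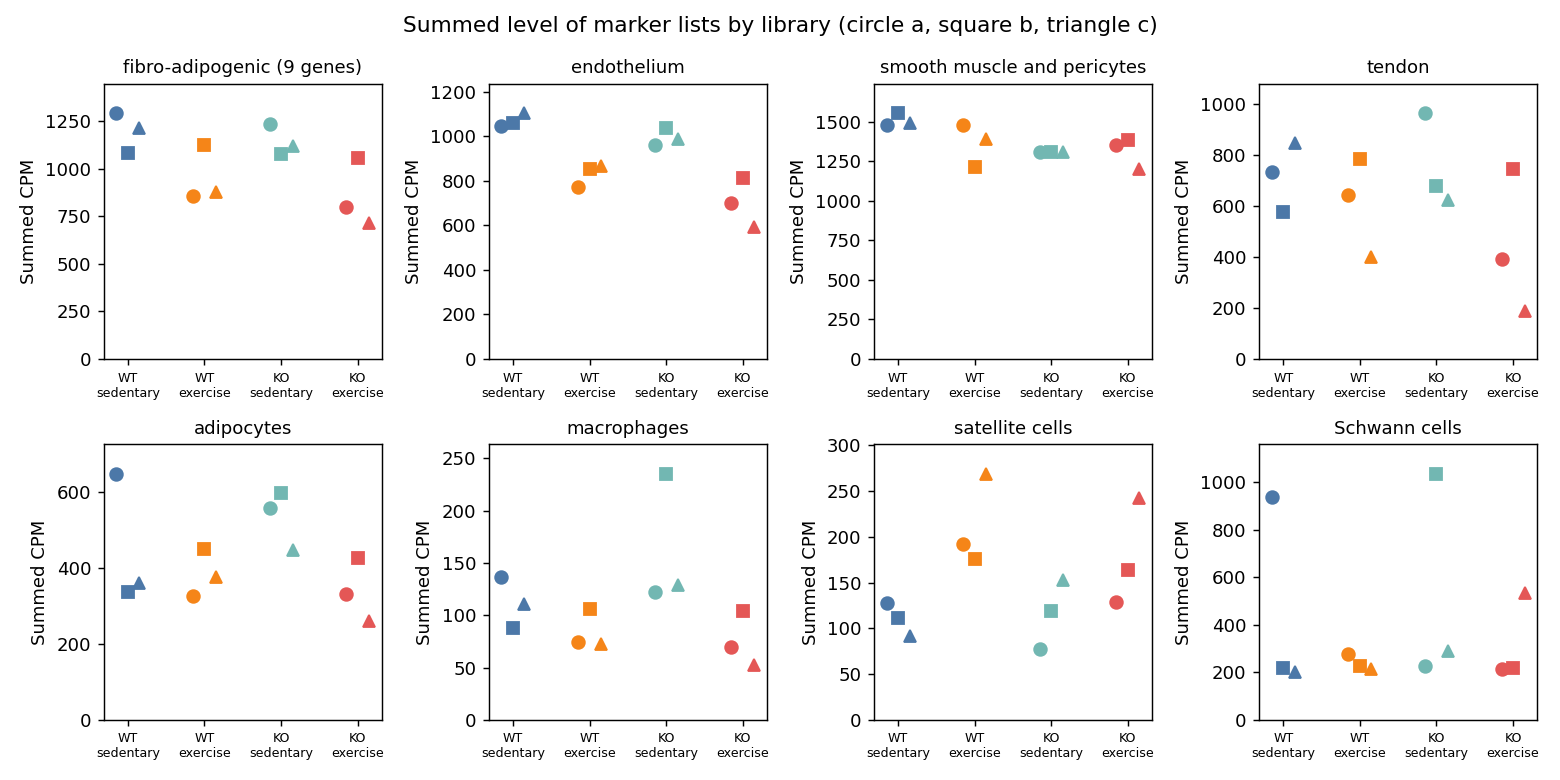
Summed CPM of the 9 genes and of 7 marker lists of other cells (vertical axes, from 0), by group; symbols are libraries a (circle), b (square) and c (triangle). The endothelial sums stand at 963 or more in all sedentary libraries and at 867 or less in all exercised ones. The tendon sums are highest among exercised libraries in the b libraries, at 786 and 747, as are the adipocyte and macrophage sums.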

How the data were processed

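RNA of 12 soleus libraries was extracted with Trizol, made into libraries with a BGI kit and run on a BGISEQ instrument, per the labels' protocols. STAR, featureCounts and the build mm10 are named, without versions, in the submitters' processing notes. The authors deposited raw counts per gene. Each count column is headed by genotype, condition and a number for the animal, so columns were tied to groups and not to single samples, and 12 other per-sample value columns were not used. Replicates were not duplicates of each other (chi-square per gene 8.73 to 51.9).

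Counts were analysed in R 4.3.3 with edgeR 4.0.16: filterByExpr (minimum count 10), TMM scaling, 1 robust quasi-likelihood fit with a mean per group (8 residual degrees of freedom, common biological coefficient of variation 0.168), and p adjusted by Benjamini and Hochberg over 13886 genes with a threshold of 0.05. A background is the share of those genes past the same rule. CPM were computed from the counts with the TMM factors, and CPM per kilobase with transcript lengths from GENCODE M21. P-values without another tool named are from edgeR. That libraries of a group came from separate mice rests on the design text and on the animal numbers of the column headers, which all differ. The p-values weigh a difference against the spread between these libraries. The pipeline was tested on simulated data. Alternatives were RLE factors, no filter, DESeq2 1.42.0, limma-voom (limma 3.58.1), the compared groups only and each library left out in turn. Added after the data were seen were fits without the 2 libraries with 2 animal numbers, without the 3 with Alb above 100 CPM, with Dbp, a clock-controlled gene, as covariate, and with no scaling factors. Dbp was highest in the 2 libraries with 2 animal numbers, at 266 CPM in KO exercise a and 237 in WT exercise a. It stood at 136 to 153 CPM in KO sedentary a and WT sedentary b and c, and at 18.3 to 25.8 in the others.

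The 9 genes, the related and marker lists and the comparisons, the averaged exercise comparison among them, were chosen with earlier results of these data known. Genes were named by rule: the 9 genes, Dnmt3a, genes of related lists past the threshold, the 2 of smallest p per list and averaged comparison, and 8 genes per likeness profile. Not every gene the rule allows is named, and Col15a1 and some genes of the marker lists are named outside it. Gene positions and exon overlaps are from GENCODE M21, and promoter windows from RefSeq (GRCm38.p6).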

Additional observations from a re-analysis of the deposited data

How the results depend on the processing

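No paired analysis was possible because the count columns carry no replicate numbers. The animal numbers in their headers all differ, so no mouse was named in both conditions and the headers define no pairs. In the averaged exercise comparison the 3 called genes kept their direction in all 20 alternatives, as did the genes of the other lists that were followed there. Some named genes, Pdgfa and Col15a1 among them, were not followed in the alternatives. Of the genes of other lists that were followed but not called, Ebf1 and Cebpb passed in 5 alternatives, Cebpd in 4, Adamts10 in 3, Tgfb1 and Prelp in 2, and Chad, Efemp1 and Il1rl1 in 1. The number of the 9 genes called for the averaged exercise comparison was 0 without the 2 libraries with 2 animal numbers, 0 without the 3 high in Alb and 0 to 4 with 1 library left out, and DESeq2 called 2 in KO muscle. Calls over all genes in that comparison ran from 45 to 997. Of 71 changes of sign, 64 were in the genotype and interaction comparisons, where none of the 9 genes was called, and the cause was not tested. Without the 3 libraries high in Alb, KO against WT after exercise was 0.024 for Cd34, 0.24 for Dpt, 0.62 for Fbn1, 0.44 for Lum and 0.45 for Mfap5, averaged 0.078 for Dpt, 0.30 for Fbn1 and 0.23 for Lum, sedentary 0.026 for Lum, and the interaction was 0.095 for Cd34, 0.32 for Dpt, 0.41 for Lum and 0.10 for Mfap5 (log2). Without the 2 libraries with 2 animal numbers, the exercise difference of Mfap5 was 0.0032 averaged and 0.16 in WT, and the interaction of Fbn1 was -0.037. The Dbp covariate gave 0.026 for the interaction of Dpt, and limma-voom 0.012 for Lum, KO against WT sedentary. With no scaling factors Ly6a stood at -0.049 for averaged exercise and Smoc2 at 0.0051 for KO against WT sedentary. With 1 library left out, values that changed sign ran as follows. For KO against WT sedentary they ran from -0.18 to 0.0084 for Dcn, -0.16 to 0.12 for Dpt, -0.15 to 0.24 for Lum, -0.046 to 0.095 for Ly6a, -0.21 to 0.35 for Mfap5, -0.13 to 0.0055 for Pdgfra and -0.094 to 0.062 for Smoc2. After exercise they ran from -0.41 to 0.0015 for Cd34, -0.29 to 0.14 for Dpt, -0.32 to 0.21 for Fbn1, -0.38 to 0.23 for Lum and -0.47 to 0.30 for Mfap5. Averaged over conditions they ran from -0.18 to 0.039 for Dpt, -0.28 to 0.016 for Fbn1, -0.20 to 0.11 for Lum and -0.15 to 0.23 for Mfap5. The interaction ran from -0.32 to 0.084 for Cd34, -0.23 to 0.037 for Dcn, -0.23 to 0.20 for Dpt, -0.14 to 0.41 for Fbn1, -0.40 to 0.25 for Lum, -0.65 to 0.12 for Mfap5 and -0.31 to 0.040 for Pdgfra. Exercise against sedentary ran for Mfap5 from -0.38 to 0.0069 averaged, -0.70 to 0.065 in KO and -0.44 to 0.16 in WT.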
